A study of Mus musculus with 2 samples.

Results

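The stretch described here begins at the promoter of mouse Fos, crosses the gene and ends 100 kb from where it began. It consists of the table positions, 1 kb apart on mm9 chromosome 12, from the centre of each table to 100 kb above it. They were chosen by coordinate alone: the centre and 100 further positions, of 2001 in the table of cultured cortical neurons and of 201 in that of hippocampus. Both tables come from 4C-seq (circular chromosome conformation capture with sequencing), in which cross-linked chromatin is cut and re-ligated, and the DNA joined to 1 chosen site, the viewpoint, is read out. Here the viewpoint was the Fos promoter, and the stated aim was to find its physical contacts with putative enhancers. One library was made from cortical neurons taken from E15.5 embryos and grown for 10 to 11 days in vitro, and the second from hippocampi of mice 3 months old. The labels name no genotype, strain or treatment for either. The samples thus differ in brain region, in age and in whether cells were cultured, and these cannot be told apart. Tissue also holds glia and other cells beside neurons. Both were fixed with 1% formaldehyde, quenched with 0.125 M glycine, cut with enzymes labelled HindII and DpnII, and ligated for 4 hours at 16 °C. Each group is a single library, so nothing below could be checked against replicates, and no test was made.

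Fos is an immediate-early gene: neurons transcribe it within minutes of a stimulus, and its product pairs with Jun proteins to form the transcription factor AP-1. Much of that response is set at the promoter, where CREB binds a cyclic AMP response element and serum response factor binds a different kind of element. Enhancers on either side of the gene also take part. Most of the activity-dependent enhancers described in neurons lie upstream, and the one called e5 lies downstream. Its mm9 coordinates were not used here, so no window is assigned to it. RefSeq places Fos on the plus strand, so higher coordinates are downstream. In RefSeq order the next genes on that side are the long non-coding RNA genes Gm32296 and Gm32348, then Jdp2, which encodes an AP-1 family repressor, the pseudogene Gm33312, and Batf, another basic leucine zipper gene of that family. The reference holds another build than the tables, so where these genes fall within the stretch is not given.

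The viewpoint is named as the Fos promoter. For that reason the 250 bases before the RefSeq start of Fos are shown, 5′ to 3′ on the plus strand, at chr12:85473640-85473889 of GRCm38.p6. The viewpoint fragment itself was not placed here, so whether it holds these bases was not determined. Capitals mark the core of the cyclic AMP response element, TGACGT, and the TATA box, TATAAA.
Fos promoter: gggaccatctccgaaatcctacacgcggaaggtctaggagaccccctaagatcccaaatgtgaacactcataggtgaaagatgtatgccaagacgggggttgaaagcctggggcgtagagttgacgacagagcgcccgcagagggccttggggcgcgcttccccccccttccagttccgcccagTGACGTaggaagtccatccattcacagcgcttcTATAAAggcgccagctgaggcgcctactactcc
Searched on both strands, the window holds TGACGT once, starting 66 bases before the start, and 6.47% of the 32851 RefSeq promoter windows of this length hold it. TATAAA begins 33 bases before the start and is found in 12.4% of windows. Of the enzymes' sites, GATC (DpnII) occurs once, at -201, and 41.9% of windows hold at least 1. HindII, whose site is GTCAAC or GTCGAC or GTTAAC or GTTGAC, has 1 match, GTTGAC at -131, and 9.14% of windows hold one. AAGCTT, the site of the similarly named HindIII, has no match in this window and is found in 6.22% of windows. The 2 tables are centred on different bases, 86814834 in the cortical and 86814199 in the hippocampus table, 635 bases apart. The centres are taken for the viewpoint, and distances are from each table's own centre, given as +26 kb for 26 kb downstream.

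Each position carries a signal for 48 window widths, from 2 to 49 kb, together with a lower and an upper bound of the values inside the window. Within each deposited table the highest 2 kb signal equals 1, so levels are read within a library and not across. Read depth is unknown. Downstream of Fos, 2 kb windows spanned 0.0176 to 0.530 in cortical neurons (median 0.140) and 0.0156 to 1 in the hippocampus (median 0.263), with those listed at 0 left out. Windows of 10 kb spanned 0.0758 to 0.233 (median 0.124) and 0.108 to 0.486 (median 0.252), and windows of 40 kb only 0.108 to 0.159 and 0.194 to 0.317. The highest window was thus 3.07 times the lowest at 10 kb in cortical neurons and 4.49 times in the hippocampus, but 1.46 and 1.63 times at 40 kb. Widening the window removed most of the relief, as the plot of the profiles at 3 widths shows. The narrowest windows are coarse. Of the 99 downstream 2 kb windows above 0 in each library, 23 carried exactly the same value as another one (to 10 decimals). The value 0.214 stood at +14, +21, +45, +46 and +84 kb in the cortical table, and 0.575 at +15, +21, +47, +72 and +82 kb in the hippocampus table. Over the full cortical profile 1489 of the 1935 windows of 2 kb above 0 shared a value with another, as did 423 of 1989 windows of 5 kb and 69 of 1991 of 10 kb. Of the downstream 2 kb windows 3 were listed at 0, at +43 and +51 kb in cortical neurons and at +22 kb in the hippocampus. The 3 kb windows at these positions read 0.130, 0.0373 and 0.709, so the last lies inside a stretch of high signal.

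**Figure D1:**
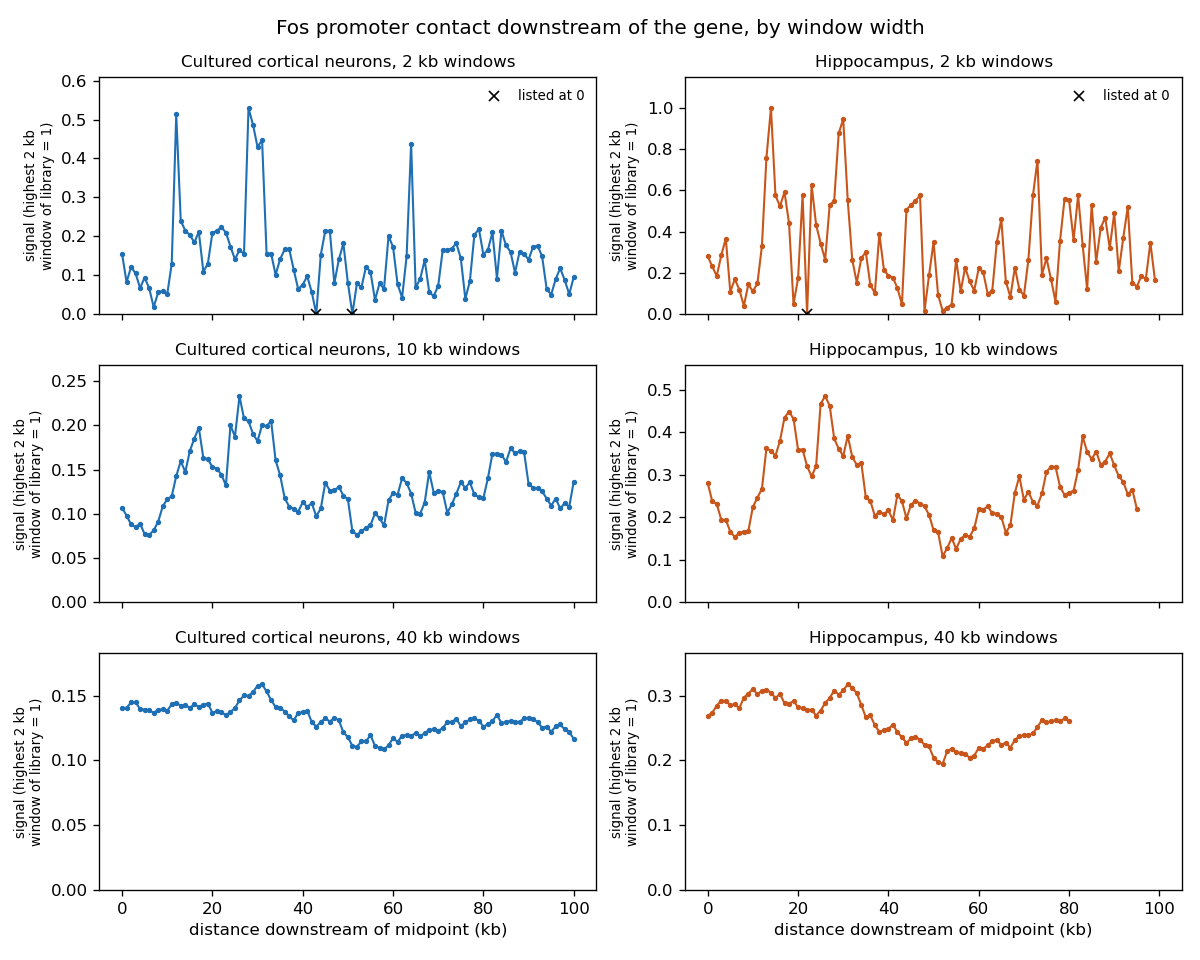
Signal against distance downstream of the table's centre in kb, in windows of 2, 10 and 40 kb (rows), for the cortical neurons (left) and the hippocampus (right); the vertical axes differ between panels, and crosses mark windows listed at 0. Narrow windows show separate crests near +12 to +15 and +28 to +31 kb in both libraries. In 10 kb windows they form a broad rise with its highest point at +26 kb. A lower maximum stands at +17 kb (cortical neurons) or +18 kb (hippocampus), parted from it by a minimum at +23 kb. In 40 kb windows the rise is shallow, with its highest point at +31 kb.

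Over the gene itself and the first kilobases past it, contact went down to a first trough, from a start that was below the median of the stretch in cortical neurons. In the hippocampus the 10 kb window at the centre, 0.281, was above its median of 0.252, and those from +1 to +11 kb were below it. In 5 kb windows the cortical signal was 0.105 at the centre and 0.0445 at +8 kb. The hippocampus signal was 0.216 at the centre and 0.103 at +9 kb. The 10 kb windows had their lowest value of this end at +6 kb in both, 0.0758 (bounds 0.0116 to 0.379) in cortical neurons and 0.153 (0.0176 to 1.08) in the hippocampus. The first 5 kb averaged 0.0932 ± 0.00899 (SD over 5 overlapping windows) and 0.228 ± 0.0362, and the next 5 kb 0.0866 ± 0.0135 and 0.163 ± 0.00602, in the same order. For the cortical neurons the window at +6 kb was also the lowest of the whole stretch, while the hippocampus had a lower one further out. The windows within 5 kb of the centre reach across it and take in upstream chromatin.

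The first crest stood between +11 and +19 kb, right after this low stretch. In 2 kb windows the cortical signal was 0.050 at +10, 0.129 at +11 and 0.513 at +12 kb, then 0.240 at +13 kb. The window at +12 kb, chr12:86825835-86827834 (bounds 0.0424 to 5.60), ranked 4 among the 1935 cortical 2 kb windows above 0. The hippocampus read 0.148 at +11, 0.329 at +12, 0.758 at +13 and 1 at +14 kb. The last, chr12:86827200-86829199 (bounds 0.189 to 5.18), was thereby the highest 2 kb window of its table. Past its top the cortical signal was 0.214, 0.203, 0.184, 0.211 and 0.109 from +14 to +18 kb, above the cortical median of 0.140 up to +17 kb. The hippocampus signal was 0.575, 0.523, 0.592 and 0.441 from +15 to +18 kb, above its median of 0.263. At +19 kb, the last position of the crest, both were below their medians, with 0.129 in cortical neurons and 0.0476 in the hippocampus. In 5 kb windows the crest was at +13 kb (0.271, bounds 0.0537 to 1.28) in cortical neurons and at +15 kb (0.622, bounds 0.147 to 2.58) in the hippocampus. From +11 to +19 kb the 5 kb signal averaged 0.182 ± 0.0444 (9 windows) against 0.0729 ± 0.0322 from +5 to +10 kb (6 windows) in cortical neurons, a ratio of 2.49. The hippocampus had 0.406 ± 0.129 against 0.133 ± 0.0288, a ratio of 3.05. The lowest window of the crest (0.133 and 0.233) lay above all but 1 of the 6 windows of the trough in cortical neurons (highest 0.135) and above all 6 in the hippocampus (highest 0.180). The limits of these stretches were set after the profiles had been seen, and neighbouring windows overlap, so the ratios are descriptions.

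The second crest, between +26 and +33 kb, held the highest window of the stretch at all 6 widths from 2 to 7 kb in cortical neurons and at 3 of the 6 in the hippocampus. The cortical 2 kb windows read 0.530, 0.486, 0.429 and 0.448 at +28, +29, +30 and +31 kb, against 0.154 at +27 and 0.155 at +32 kb. They ranked 3, 5, 9 and 6 in the whole cortical table. The hippocampus read 0.550, 0.877, 0.946 and 0.551 at the same distances, and its windows at +30 and +29 kb ranked 2 and 3 in that table. The bounds were 0.123 to 2.22 for the cortical window at +28 kb and 0.120 to 7.19 for the hippocampus window at +30 kb. In 5 kb windows both crests stood at +29 kb, with 0.326 (bounds 0.0329 to 2.84) at chr12:86841335-86846334 in cortical neurons and 0.677 (0.120 to 3.71) at chr12:86840700-86845699 in the hippocampus. The mean of the second crest was 1.23 times that of the first in cortical neurons (0.224 ± 0.0709, 8 windows) and 1.03 times in the hippocampus (0.420 ± 0.132). Both ratios are small against the SD between windows. A shoulder separated the crests. The 5 kb signal was at a minimum at +20 kb in both libraries (0.128 and 0.186), then at a smaller maximum at +21 kb in cortical neurons (0.218) and +22 kb in the hippocampus (0.470). The 10 kb windows join the shoulder to the second crest, and their highest value stood at +26 kb, with 0.233 and 0.486. At this width the first crest kept a maximum of its own, at +17 kb in cortical neurons (0.198) and +18 kb in the hippocampus (0.449). A minimum at +23 kb lay between the maxima in both libraries (0.132 and 0.296).

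Beyond +33 kb the signal dropped back in both. From +38 to +43 kb the 5 kb signal averaged 0.0907 ± 0.0176 (6 windows) in cortical neurons and 0.189 ± 0.0261 in the hippocampus, 0.404 and 0.451 times the second crest. All windows of that low stretch lay below all those of the crest. A small maximum followed at +44 kb in both, 0.157 (bounds 0.0759 to 0.319) and 0.30 (0.0512 to 1.64). Another trough came next, from +50 to +57 kb, the deepest of the stretch in hippocampus windows of 5 and 10 kb. There the 5 kb mean was 0.0727 ± 0.0176 (8 windows) in cortical neurons and 0.110 ± 0.0311 in the hippocampus. The cortical mean was close to that of the trough at +5 to +10 kb, 0.0729 ± 0.0322 (6 windows). The lowest cortical window of the stretch stood near Fos at 5 and 10 kb width, but at +53 kb at 6 and 7 kb width. At +53 kb the hippocampus had its lowest 5 kb window downstream, 0.0713 (bounds 0.00425 to 0.596), and the cortical value there was 0.0609 (0.0100 to 0.277). The hippocampus 2 kb windows read 0.0156, 0.0305 and 0.0455 from +52 to +54 kb, the cortical ones 0.0786, 0.0682 and 0.121. In 10 kb windows the low point of this trough was at +52 kb in both (0.0763 and 0.108).

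The last 40 kb held a series of smaller maxima that ended in a broad rise. In 10 kb windows the cortical maxima stood at +62, +68 and +75 kb with 0.140, 0.147 and 0.136, and the hippocampus maxima at +62, +69 and +76 kb with 0.225, 0.296 and 0.319. The cortical values are level, while each hippocampus maximum was higher than the one before. At 2 kb width the highest window of this part was not the same in both. The cortical neurons had 0.438 at +64 kb (chr12:86877835-86879834, bounds 0.0606 to 2.97, rank 8 in its table), between 0.148 and 0.0679 on its sides. There the hippocampus read 0.348, and it had a maximum of its own 1 kb further, 0.459 at +65 kb. The hippocampus had 0.745 at +73 kb (chr12:86886200-86888199, bounds 0.137 to 3.95, rank 8 in its table), where the cortical neurons read 0.168. From +78 to +92 kb the 5 kb signal averaged 0.151 ± 0.0274 (15 windows) and 0.320 ± 0.0692, 2.07 and 2.91 times that of the trough at +50 to +57 kb. The highest 10 kb window there was at +86 kb in cortical neurons (0.174) and at +83 kb in the hippocampus (0.391). Towards the end the signal was lower again, 0.109 and 0.220 at +95 kb. The deposited signal thus did not decline steadily with distance, and how its scaling treats distance was not examined. The 10 kb windows at 75 to 100 kb averaged 0.137 ± 0.0229 (26 windows) and 0.304 ± 0.0430 (21 windows), above those of the first 10 kb.

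The 10 windows of 10 kb that do not overlap had the same 3 on top in both libraries, in the same order, and the same pair at the bottom, in exchanged order. The first, which covers the 10 kb from the centre and so includes Fos, had 0.0769 in cortical neurons (bounds 0.0118 to 0.385) and 0.166 in the hippocampus (0.0200 to 1.14), rank 10 and rank 9 of the 10. The window centred at +25 kb was the highest in both, 0.187 (0.0298 to 1.05) and 0.468 (0.0699 to 2.96), and that at +15 kb the next, 0.171 and 0.345. The window at +85 kb was rank 3 in both, 0.159 and 0.337. The middle ranks went to +35 kb (0.144 and 0.247), +75 kb (0.136 and 0.307) and +45 kb (0.135 and 0.229). Low values were found at +95 kb (0.109 and 0.220), +65 kb (0.101 and 0.201) and +55 kb (0.0870 and 0.125). The bounds of every window overlapped those of its neighbours by far. They describe values inside a window, whose spread (as plus or minus on the log2 scale) had a median of 2.40 in cortical neurons and 2.83 in the hippocampus at 10 kb, more than the whole range of the 10 kb profile (1.62 and 2.17 from lowest to highest).

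Which position was highest depended on the width, and the libraries were close to each other at most widths but not at all. With windows of 2 to 7 kb the highest cortical position lay from +28 to +30 kb at all 6 widths. In the hippocampus it was at +29 or +30 kb or, at 2, 6 and 7 kb, at +14 or +15 kb. With windows of 8 to 17 kb it lay from +24 to +27 kb in cortical neurons but from +18 to +26 kb in the hippocampus, furthest apart at 13 and 14 kb (+25 and +26 kb against +18 and +19 kb). With windows of 18 to 31 kb, which hold the 2 crests and the shoulder together, it lay from +20 to +25 kb in cortical neurons and from +21 to +26 kb in the hippocampus. With 32 to 40 kb it moved back to between +27 and +31 kb in both. At 41 and 42 kb it was at +31 and +32 kb in cortical neurons but at +9 and +10 kb in the hippocampus. At 43 to 49 kb, where windows also take in the upstream side, it lay from +7 to +11 kb and from +7 to +13 kb. At 49 kb both libraries had their highest window at +7 kb, 0.158 and 0.316, beside the lowest narrow windows of this end. A map of signal over width and distance shows the crests merging upward. With windows of 19 to 48 kb the lowest position lay from +47 to +61 kb in both libraries. At 49 kb it was at +99 kb in cortical neurons and at +60 kb in the hippocampus. The hippocampus table ends at 100 kb and holds no 49 kb value near +99 kb. Its lowest position could not lie there, so the libraries cannot be compared on this point.

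**Figure D2:**
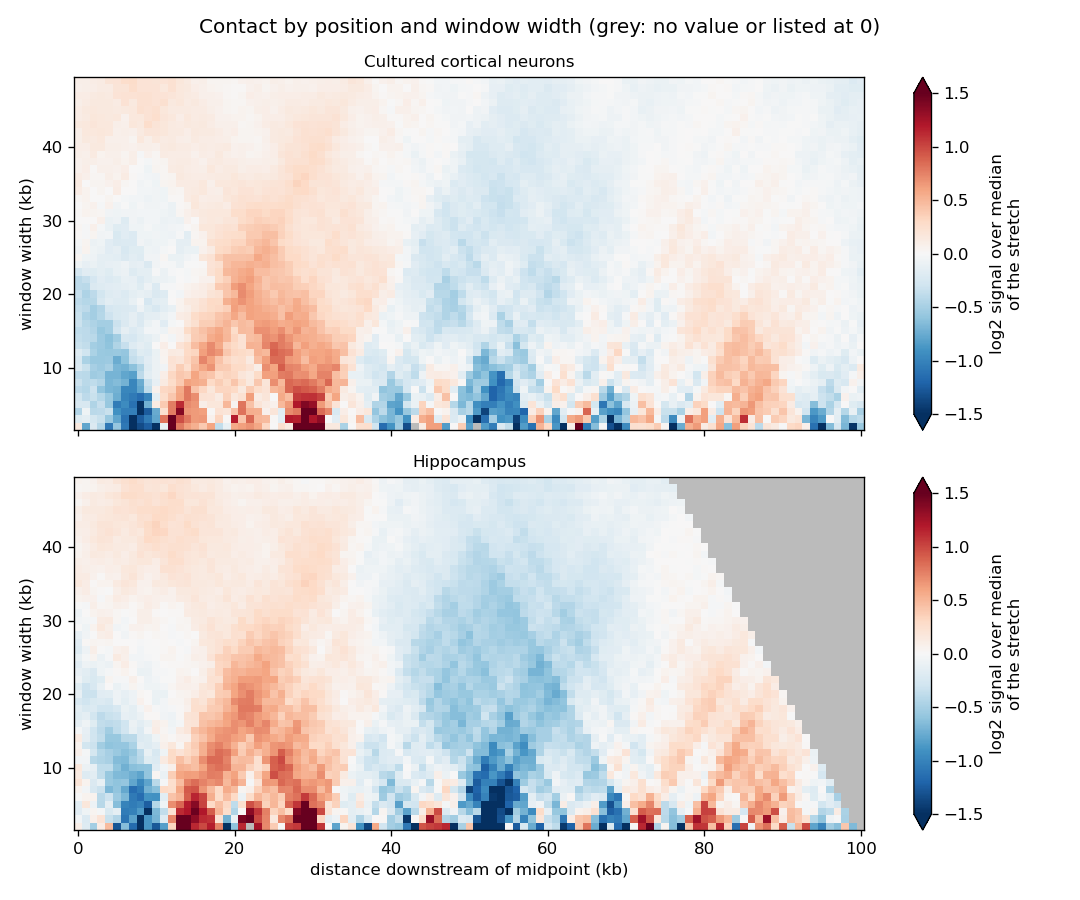
Log2 signal over the median of the stretch at the same width (colour), by distance downstream in kb (horizontal) and window width in kb (vertical), for the cortical neurons (top) and the hippocampus (bottom); grey marks windows without a value or listed at 0. Crests near +13 to +15 and +29 kb join above about 18 kb width, and the trough at +50 to +57 kb is wider and deeper in the hippocampus.

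The next comparison asked whether cultured neurons and hippocampal tissue differed downstream. The profiles were alike. Over the 96 positions with a 10 kb value in both, the Spearman correlation was 0.893 and the Pearson correlation of log2 signal 0.887, and in the 10 windows without overlap the Spearman correlation was 0.976. The same measure was 0.583 in 2 kb windows (97 positions), 0.817 in 5 kb and 0.929 in 40 kb windows. Positions share most of their window, and both libraries share the named viewpoint, the restriction sites and the scaling, so these values are descriptions. On the upstream side they were 0.372, 0.645, 0.769 and 0.724 at 2, 5, 10 and 40 kb. All 7 hippocampus maxima of the 10 kb profile lay within 3 kb of a cortical maximum, and all 7 minima within 2 kb of a cortical minimum. The cortical profile had 8 maxima, so many positions of the stretch lie that close to one. The share of all positions that do was not computed. The cortical neurons had 1 maximum more, at +33 kb (0.205), where the hippocampus read 0.323 on the flank of its crest. Relative to its own median, 85.4% of the 96 positions were on the same side in both, 42 above and 40 below. A split at each median puts many positions on the same side even in unrelated profiles, and the upstream share was not computed.

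After subtraction of the median difference over the 191 positions within 100 kb on both sides, the downstream log2 difference, cortical minus hippocampus, had a mean of 0.02 (SD 0.22, 96 positions) and ran from -0.45 at +18 kb to 0.51 at +52 kb. Only 1 of the 96 positions differed by at least 0.5, that at +52 kb, where the background over all 191 positions was 4.71%, or 4.19% with the cortical neurons and 0.524% with the hippocampus higher. The share downstream was 1.04%, below the background. At +52 kb the signals were 0.0763 and 0.108, the low point of that trough in both, and the lowest downstream window of the hippocampus. With the cortical profile interpolated to the hippocampus positions the difference there was 0.57, and +50 kb was called as well. With equal sums it was 0.495, and after quantile normalization 0.11. In 5 kb windows 17 of 98 positions differed by 0.5 or more (17.3%) against 25% within 100 kb on both sides, and in 2 kb windows 51 of 97 (52.6%) against 54.8%. In 20 and 40 kb windows none of 91 and 81 positions did, against 1.1% and 0% on both sides. At the narrow widths single windows differed between the libraries about as often downstream as over both sides together, or less often. The downstream positions are part of that background, and the difference in shares was not tested.

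The difference was not spread evenly. From 10 to 20 and from 20 to 30 kb the mean difference was -0.14 ± 0.19 and -0.08 ± 0.19 (10 positions each), lower in cortical neurons at 8 and 7 of 10 positions. From 50 to 60 kb it was 0.33 ± 0.17, with the cortical neurons higher at 9 of 10 positions, and from 75 to 100 kb -0.09 ± 0.11, lower in 16 of 21. In the first 5 kb it was -0.25 ± 0.12, lower in 5 of 5. Neighbouring positions share most of their 10 kb window and are not replicates, so these counts and SDs are descriptions. The hippocampus profile swung further: the SD of its log2 signal over the 96 positions was 0.46 against 0.37 in cortical neurons, a ratio of 1.24, and the ratio was 1.36, 1.19, 1.30 and 1.49 at 2, 5, 20 and 40 kb. Upstream these ratios were 1.40, 1.12, 0.948 and 0.748, and 1.07 at 10 kb. The spread of values inside windows was also larger in the hippocampus, as given above. Its part in the wider swing was not tested.

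**Figure D3:**
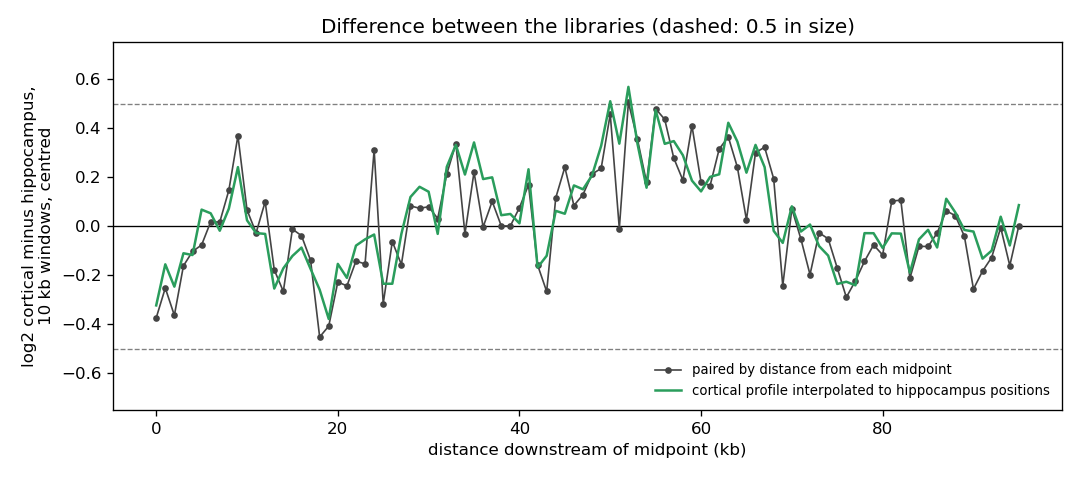
Log2 signal of the cortical neurons minus that of the hippocampus in 10 kb windows, after the median difference within 100 kb was subtracted, by distance downstream in kb; dots pair positions at the same distance from each table's centre, and the green line reads the cortical profile at the hippocampus coordinates. Values lie between -0.45 and 0.51 in the first pairing, and are highest around +50 to +57 kb, where the hippocampus signal is lowest.

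Set against the same distances upstream, the downstream stretch differed little on average in 10 kb windows. The mean log2 difference of downstream over upstream at equal distance was 0.08 (SD 0.60, 100 pairs of positions) in cortical neurons and 0.09 (SD 0.76, 95 pairs) in the hippocampus, with the downstream side higher at 59 and 51 pairs. In 20 kb windows that do not reach across the centre it was higher at 60 and lower at 31 pairs in cortical neurons, and at 52 and 29 in the hippocampus. In 40 kb windows of that kind the counts were 64 and 17, and 35 and 26, with mean differences of 0.10 (SD 0.16) and 0.0048 (SD 0.21). Neighbouring positions share most of their window at these widths, so the pairs are not independent. The counts and SDs are descriptions. Single stretches differed strongly and mostly in the same direction in both. From 5 to 10 kb the downstream mean was 0.483 times the upstream one in cortical neurons (0.0866 against 0.179 ± 0.0282) and 0.454 times in the hippocampus (0.163 against 0.360 ± 0.0399). From 20 to 30 kb it was 2.09 times (0.180 ± 0.0332 against 0.0862 ± 0.0203) and 2.88 times (0.382 ± 0.0675 against 0.133 ± 0.0325), where the inner part of the second crest faces the lowest upstream class mean of both libraries. From 50 to 60 kb it was 0.646 and 0.581 times, and from 75 to 100 kb 1.26 and 1.27 times. From 30 to 40 kb, the class that holds the outer part of the second crest, it was only 1.10 and 0.988 times.

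**Figure D4:**
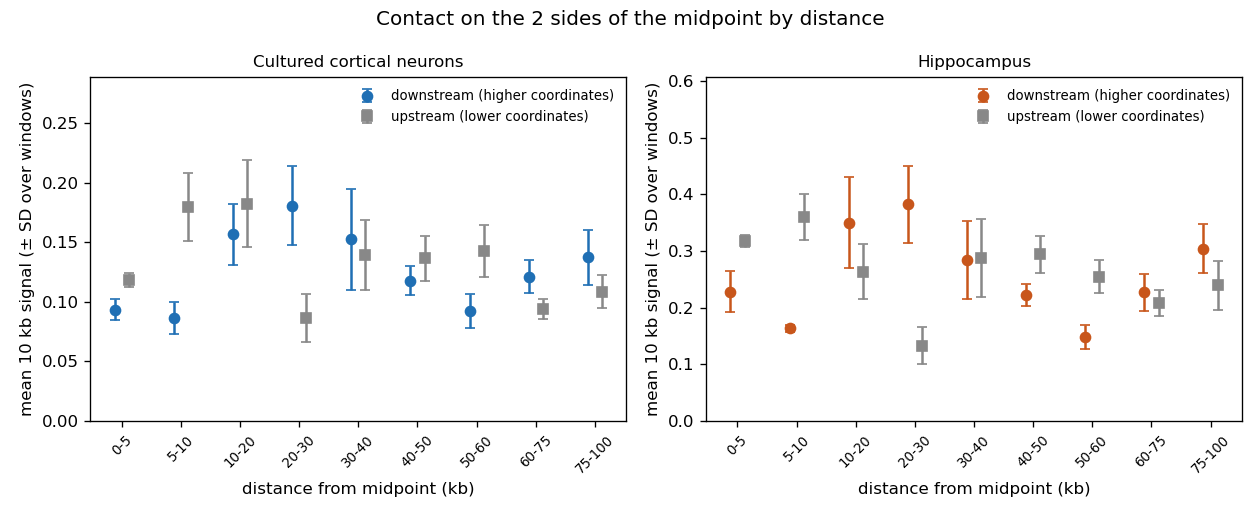
Mean 10 kb signal by distance class in kb, downstream (coloured circles) and upstream (grey squares), for the cortical neurons (left) and the hippocampus (right); bars are the SD over overlapping windows of 1 library. Downstream means are below the upstream ones at 5 to 10 and 50 to 60 kb and above them at 20 to 30 and 75 to 100 kb in both libraries.

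The cortical table reaches 1000 kb to each side, so the deposited signal downstream can be set against that far from Fos. How its scaling treats distance was not examined. A window was counted as high when it reached the 95th percentile of the 1590 windows of 10 kb that lie more than 200 kb away (0.157). Downstream 25 positions, or 24.8% of them, were high, against 7.99% of all 1991 windows of the table and 16 of the 100 positions upstream. They formed 4 runs, at +13 kb, from +15 to +19 kb, from +24 to +34 kb and from +82 to +89 kb. Only the window at +26 kb (0.233) was above the highest distant window, which had 0.213 at -366 kb. The median downstream window, 0.124, was at the 65.8th percentile of the distant ones, whose mean was 0.114 ± 0.0254. None of the downstream windows was below their 5th percentile (0.0733). The troughs at +6 and +52 kb, at the 6.04th and 6.10th percentiles, were thus lower than most windows far from Fos, although they lie close to the viewpoint. The hippocampus table ends at 100 kb and allows no such comparison.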

How the data were processed

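The submitters' processing notes name the genome build as mm9. Aligner, counting method and smoothing program were not given in the sources used here. As the deposited tables show, the authors give the signal (contact coverage, averaged on a log scale and given on a linear one) per position and window, scaled to each library's highest 2 kb window, and an upper bound on the same scale. The lower bound, a score on that scale in the deposited tables, is just below 0 in some windows. Columns were read as 48 window widths from 2 to 49 kb by the number of missing values at the table ends. Windows at 0 were left out at 2 kb. Logs are log2(signal + 0.00569) for the cortical neurons and log2(signal + 0.00559) for the hippocampus, constants recovered from the bounds. The main window was 10 kb; a maximum or minimum is the highest or lowest value within 5 kb to each side. Window ends are the position plus and minus the inferred width. The only genes named are Fos and its RefSeq neighbours up to Batf. The stretch, its classes and the comparisons were chosen with earlier results of these data known. The computations, in Python 3.11.15 with numpy 2.4.6, pandas 2.3.3, scipy 1.17.1 and matplotlib 3.10.9, were tested on simulated data. Alternatives changed the window, pairing, centring, call size, reference and averaging: 31 were planned and 2 (the logs without the constant, and 2 kb windows at 0 kept) were added after the data had been seen.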

Additional observations from a re-analysis of the deposited data

Results flagged for a closer look

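In some distance classes the side with more contact was not the same in the 2 libraries. From 10 to 20 kb the log2 ratio of downstream over upstream mean 10 kb signal was -0.22 in cortical neurons and 0.41 in the hippocampus. From 30 to 40 kb it was 0.13 and -0.017. There the hippocampus means were nearly equal, 0.284 ± 0.0693 downstream and 0.287 ± 0.0685 upstream. For this class the signs also differed at 2 and 5 kb width. At 20 and 40 kb width both were positive (0.25 and 0.18, and 0.12 and 0.21). Each tissue had 1 library, so the difference between them was not tested.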

How the results depend on the processing

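Of 48 alternative values, 30 stayed within the spread or tolerance set for them and 18 moved, and none changed direction. The log2 ratio of mean signal at 10 to 30 kb over 0 to 10 kb was 0.91 in cortical neurons and 0.90 in the hippocampus. It was 1.45 in cortical 2 kb windows. Keeping those at 0 could not change it, because they lie at +43 and +51 kb, outside both classes. In hippocampus 2 kb windows it was 1.28, and 1.21 with the window at 0 kept. The ratio shrank to 0.55 and 0.47 in 20 kb windows and to 0.020 and 0.033 in 40 kb windows. These wide windows span both distance classes and reach upstream. The number of 10 kb maxima was 8 and 7, but 3 and 2 when a maximum had to be highest within 10 kb to each side. The Spearman correlation between the libraries was 0.583 in 2 kb windows. The count of 1 differing downstream position became 51, 17, 0 and 0 in 2, 5, 20 and 40 kb windows, 2 with interpolation, 0 with equal sums and 0 with quantile normalization, and 18 and 0 at call sizes of 0.3 and 0.7. The highest window stayed within 5 kb of +26 kb in 5, 20 and 40 kb windows, but in the hippocampus it lay at +15 kb in 6 and 7 kb windows, at +18 kb in 13 kb and at +19 kb in 14 kb windows. The mean difference between the sides has a spread over pairs far larger than itself, so that counting it as unmoved shows nothing: it ran from 0.060 to 0.11 in cortical neurons and from 0.0029 to 0.12 in the hippocampus. The count of high cortical windows was also 25 with a more distant reference. No paired analysis was possible because each group has 1 library. Depth is unknown, so no counting error can be given. Many 2 kb windows share exact values, which limits what the narrowest width can show.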
